A study of Mus musculus with 4 samples.

Results

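Collagen genes are the genes whose mouse symbol has the form Col, a number, a and a number, each encoding one chain of a collagen protein. The features of the 4 single-cell libraries hold 44 such symbols among 32285 genes, and the 43 with at least 20 UMIs (unique molecular identifiers, 1 per captured RNA molecule) over the 4 libraries are described here. Col6a4, with 8 UMIs, lay just outside that minimum. The lowest genes inside it were Col10a1 with 25 UMIs and Col6a6 with 77 UMIs. The libraries were made with droplet sequencing (10x Genomics) from mouse cerebellum, 1 library each, in the groups P10 cKO (genotype Eftud2 cKO, postnatal day 10), P10 WT (WT, postnatal day 10), P14 cKO (Eftud2 cKO, postnatal day 14) and P14 WT (WT, postnatal day 14). Eftud2 encodes a GTPase of the spliceosome. According to the title the deficient cells are Purkinje cells, and the labels give neither a Cre driver, the deleted exon, the sex nor how many animals went into a library. All 4 suspensions came from cerebella stripped of their meninges and dissociated with trypsin.

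Collagens are trimers of chains that share a repeat of glycine followed by any 2 residues. Fibrillar collagens (types I, III and V among them) form the rope-like fibrils of connective tissue, type IV collagen forms the sheet-like network of basement membranes, and the fibril-associated, beaded-filament, transmembrane and multiplexin collagens decorate, link or anchor these structures. In the brain, fibrils lie in the meninges and around larger vessels, made by fibroblasts, whereas type IV collagen surrounds every capillary and covers the pial surface. Cells were assigned to classes by marker genes that include no collagen: a cell needed at least 3 of 10 markers of a class and 2 more than of any other class. A level below is the class's UMIs of a gene per 1000000 UMIs of that class in that library (CPM). Levels of different genes are not ranked against each other.

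After filters on genes and mitochondrial share, 6593 P10 cKO, 14280 P10 WT, 6308 P14 cKO and 15395 P14 WT cells remained, with a median of 11008, 8490, 12347 and 7838 UMIs per cell in that order. The gate found 98 fibroblasts in P10 cKO, 1120 in P10 WT, 96 in P14 cKO and 211 in P14 WT. All 10 fibroblast markers were detected in them, which is no separate check because the gate used the same markers. Mural cells (pericytes and smooth muscle) numbered 6, 64, 25 and 33 in the same order, endothelial cells 100, 935, 81 and 314, and granule lineage cells 4663, 5845, 3411 and 10535. Over all kept cells Eftud2 itself was measured at 55.7 CPM in P10 cKO, 52.2 in P10 WT, 45.0 in P14 cKO and 47.3 in P14 WT. In fibroblasts it stood at 25 CPM in P14 cKO and 29.98 CPM in P14 WT. Since the deleted part of the gene is not given, these levels do not check the genotype labels. Libraries shared 7 to 76 cell barcodes with one another, 0.111 to 0.607% of the smaller library. Xist, the RNA of the inactive X chromosome, was at 0.532 CPM in P10 cKO against 1226 in P10 WT, 896 in P14 cKO and 1010 in P14 WT. Ddx3y, a Y-linked gene, was at 59.7 CPM in P10 cKO, 0.013 in P10 WT, 1.60 in P14 cKO and 2.40 in P14 WT. These sex-linked RNAs differed between the P10 libraries together with genotype, so sex and genotype cannot be told apart in the P10 ratios.

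The P10 pair stood apart by gene length in fibroblasts, endothelial cells and granule lineage cells. In fibroblasts the median log2 ratio of P10 cKO over P10 WT was -0.33 for genes spanning under 10 kb and 2.14 for genes spanning over 200 kb. In granule lineage cells the same medians were -0.43 and 2.65. The file headers name Cell Ranger 7.0.1 for P10 cKO and 5.0.0 for P10 WT, and 7.1.0 for both P14 libraries. Several collagen genes are long, so the P14 pair is described first. Library and genotype cannot be told apart within an age, because each group is 1 library, and intervals below (95%) cover counting error alone.

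Fibroblasts held the largest share of the collagen UMIs of each library: 41.5% in P10 cKO, 67.0% in P10 WT, 41.8% in P14 cKO and 28.5% in P14 WT. Granule lineage cells, with low levels in many cells, held 29.7, 5.14, 18.8 and 25.6% in that order. Endothelial cells held 7.88, 10.3, 5.76 and 11.4%, and mural cells 0.363, 0.784, 1.64 and 1.10%. Cells that passed no gate held a further 10.3 to 14.7%. These shares follow the number of cells of each class in the suspension as well as the level per cell.

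**Figure D1:**
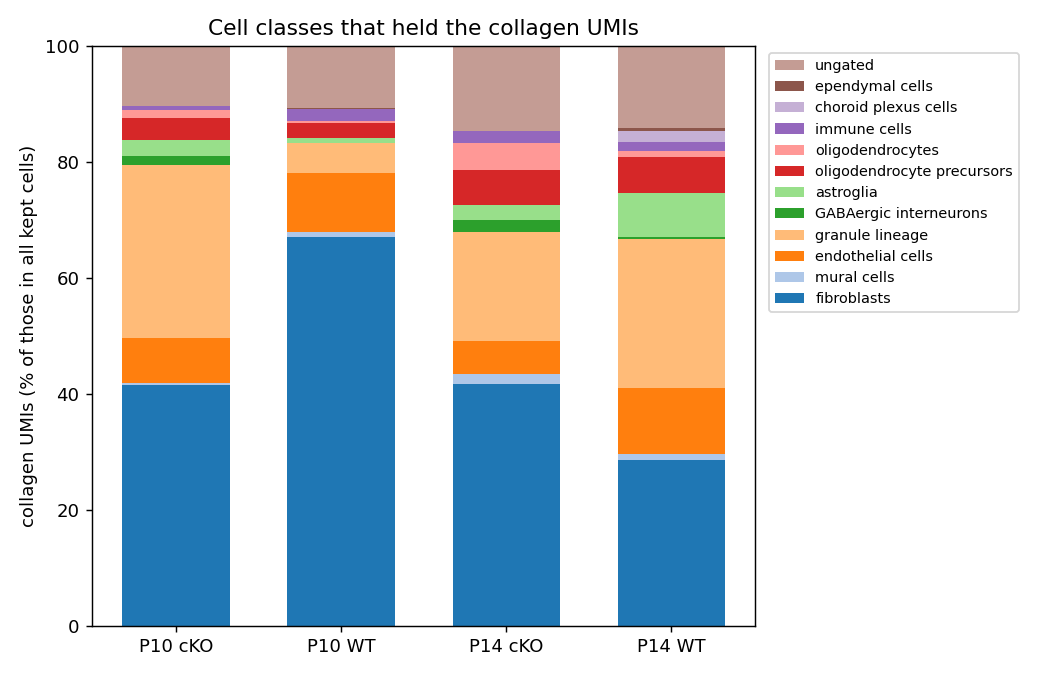
Share of all collagen UMIs of each library (y axis, percent) contributed by each cell class, in P10 cKO, P10 WT, P14 cKO and P14 WT. Fibroblasts contributed 41.5% in P10 cKO and 67.0% in P10 WT, and the granule lineage contributed 29.7% in P10 cKO and 5.14% in P10 WT.

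Of the 43 genes, 20 had their highest level in fibroblasts in 4 of 4 libraries. They include both chains of type I collagen (Col1a1, Col1a2), the type III chain Col3a1, the type VI chains Col6a1, Col6a2 and Col6a3, the type V chains Col5a1 and Col5a2, the X-linked type IV chains Col4a5 and Col4a6, and the multiplexins Col15a1 and Col18a1. In 3 of 4 libraries Col4a1 and Col4a2, the common type IV chains, were highest in mural cells, Col4a3 was highest in endothelial cells, and Col11a1, a minor fibrillar chain, was highest in granule lineage cells. Choroid plexus cells reached 20 cells in P14 WT alone. There their Col4a3 level (85 UMIs in 413 cells) was above that of endothelial cells. Oligodendrocyte precursors had the highest level of Col9a3, Col9a1 and Col11a2 in 4 of 4 libraries, astroglia that of Col2a1 and oligodendrocytes that of Col20a1. Col2a1, Col9a1, Col9a3 and Col11a2 are best known from cartilage.

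**Figure D2:**
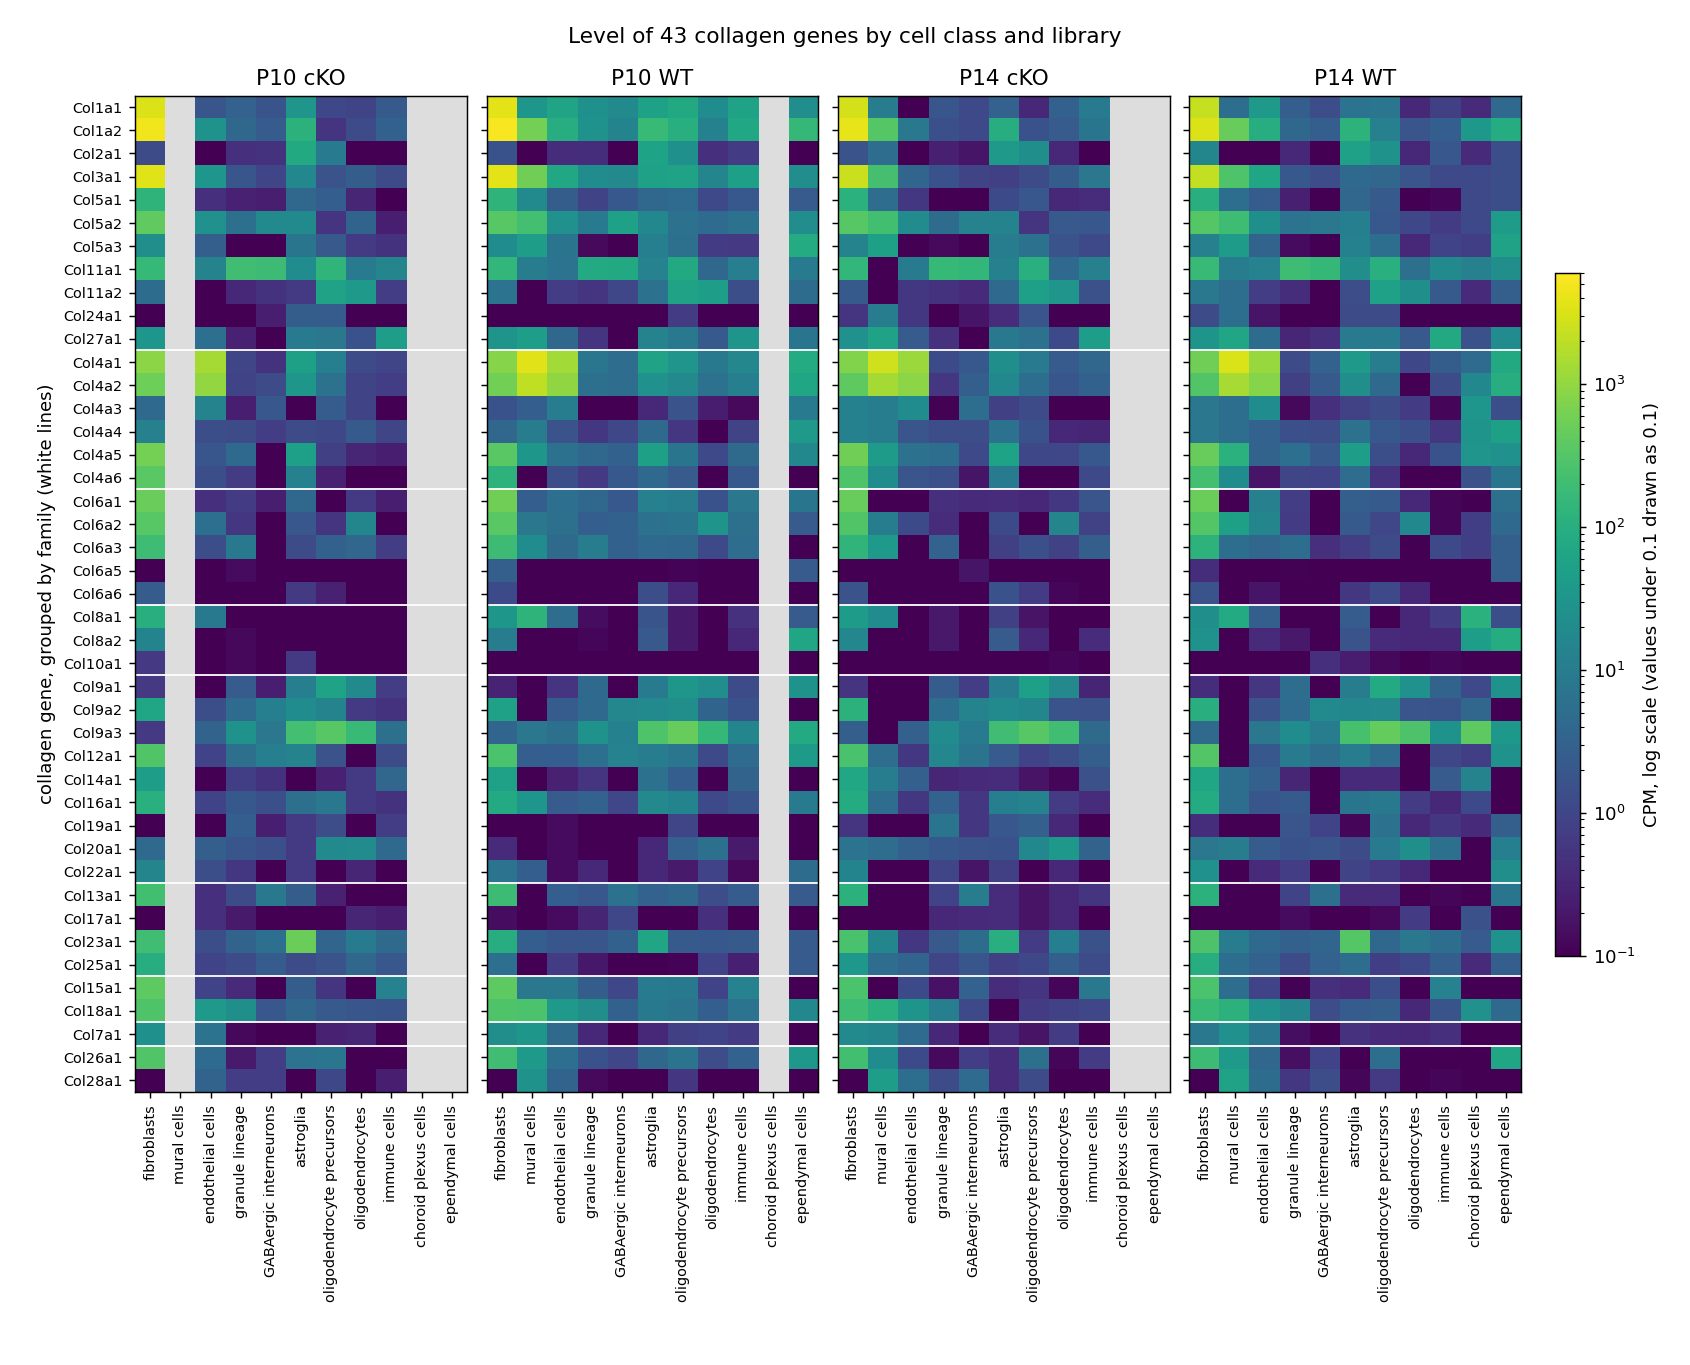
Level of the 43 collagen genes (colour, CPM on a log scale) by cell class and library, with the genes down the page grouped by family and grey for classes under 20 cells. The fibrillar chains Col1a1, Col1a2 and Col3a1 stand out in fibroblasts, Col4a1 and Col4a2 in mural cells, fibroblasts and endothelial cells, and Col9a3 in oligodendrocyte precursors, oligodendrocytes and astroglia.

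The 6 type IV genes lie in 3 head-to-head pairs, and the promoters of the 2 pairs with most fibroblast UMIs are shown because the results below set these pairs against each other. In the GENCODE vM21 annotation of GRCm38, the starts of Col4a1 (chr8:11198423-11312826, minus strand) and Col4a2 (chr8:11312805-11449287, plus strand) overlap, those of Col4a4 and Col4a3 on chromosome 1 lie 72 bases apart and those of Col4a6 and Col4a5 on the X chromosome 1309 bases apart. The windows run from 250 bases before to 50 bases after the RefSeq start (GRCm38.p6), 5' to 3' on the gene's own strand. Capitals mark matches to CCAAT and to GGGCGG (a GC box), read on both strands, so that CCAAT may appear as ATTGG and GGGCGG as CCGCCC. The windows are chr8:11312777-11313076 for Col4a1, chr8:11312555-11312854 for Col4a2, chrX:141474027-141474326 for Col4a6 and chrX:141475169-141475468 for Col4a5.
Col4a1: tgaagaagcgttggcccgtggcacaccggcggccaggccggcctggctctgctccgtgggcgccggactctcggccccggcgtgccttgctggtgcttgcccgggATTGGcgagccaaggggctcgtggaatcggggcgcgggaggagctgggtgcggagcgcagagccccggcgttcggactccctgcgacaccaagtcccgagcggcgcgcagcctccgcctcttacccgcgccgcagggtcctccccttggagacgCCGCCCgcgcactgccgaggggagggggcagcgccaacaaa
Col4a2: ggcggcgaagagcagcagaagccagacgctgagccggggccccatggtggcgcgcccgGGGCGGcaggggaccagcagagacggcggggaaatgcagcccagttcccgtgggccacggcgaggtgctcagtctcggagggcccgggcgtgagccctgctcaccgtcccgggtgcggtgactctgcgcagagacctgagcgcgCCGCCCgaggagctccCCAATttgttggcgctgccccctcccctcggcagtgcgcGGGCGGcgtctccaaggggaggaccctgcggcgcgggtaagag
Col4a6: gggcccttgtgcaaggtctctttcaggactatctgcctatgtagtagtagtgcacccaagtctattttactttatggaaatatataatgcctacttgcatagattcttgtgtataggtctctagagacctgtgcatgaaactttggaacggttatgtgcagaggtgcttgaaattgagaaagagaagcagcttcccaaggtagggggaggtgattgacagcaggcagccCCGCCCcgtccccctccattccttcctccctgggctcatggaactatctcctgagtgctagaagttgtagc
Col4a5: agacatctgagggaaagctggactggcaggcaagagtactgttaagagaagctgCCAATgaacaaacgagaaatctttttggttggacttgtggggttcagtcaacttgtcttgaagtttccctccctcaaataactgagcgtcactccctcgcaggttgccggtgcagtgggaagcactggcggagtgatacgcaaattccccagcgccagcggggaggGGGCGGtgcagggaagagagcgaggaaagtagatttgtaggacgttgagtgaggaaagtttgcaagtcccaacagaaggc

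The Col4a1 and Col4a2 windows share 78 bases, and those of Col4a6 and Col4a5 share 0. None of the 4 windows holds TATAAA on either strand. The GGGCGG box occurs in all 4, with 3 matches in the Col4a2 window and 1 in each other, and CCAAT occurs in the Col4a1, Col4a2 and Col4a5 windows. The Col4a1 match to GGGCGG and 1 of the 3 in the Col4a2 window are the same site in the shared bases, read on opposite strands. Among all 32851 RefSeq promoter windows, 35.66% hold GGGCGG, 37.41% hold CCAAT and 13.62% hold TATAAA. Of the 37 collagen windows, which belong to 34 genes, 22 hold GGGCGG, 12 hold CCAAT and 5 hold TATAAA. GC content is 74% for Col4a1 and 73.67% for Col4a2, against 48.33% for Col4a6 and 52.67% for Col4a5. A match is a description of the letters, not a bound site.

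In P14 fibroblasts the collagen genes as a sum were slightly higher in cKO, at 14765 CPM in P14 cKO and 12892 CPM in P14 WT (log2 ratio 0.20, interval 0.17 to 0.22). Of 34 collagen genes with enough UMIs for a ratio, 1 was at least 2-fold higher in cKO (Col7a1) and 3 were at least 2-fold lower (Col25a1, Col2a1 and Col11a2). Among all 11420 genes compared in these cells, 2.2% were at least 2-fold higher and 3.96% at least 2-fold lower. The median collagen log2 ratio was 0.08, with 20 of 34 above 0, against -0.07 over all genes. The other 9 of the 43 genes had under 20 UMIs in the pair: Col6a5, Col6a6, Col9a1, Col9a3, Col10a1, Col17a1, Col19a1, Col24a1 and Col28a1. There is no replicate library, so no test at this age was possible.

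The 2 chains of type I collagen assemble with each other. Col1a1 (chr11:94936224-94953042) was at 3380 CPM in P10 cKO, 3780 in P10 WT, 2918 in P14 cKO and 2292 in P14 WT. Col1a2 (chr6:4504814-4541544) was at 4785, 5404, 4029 and 3419 CPM in that order. Both had their 2 higher values at P10, and at P14 each was higher in cKO, by a log2 ratio of 0.35 (0.29 to 0.40) for Col1a1 and 0.24 (0.19 to 0.28) for Col1a2. Their ratio, Col1a1 over Col1a2, was nearly the same in the 4 libraries, at 0.706 in P10 cKO, 0.699 in P10 WT, 0.724 in P14 cKO and 0.670 in P14 WT. Col3a1 (chr1:45311538-45349706), which joins type I in mixed fibrils, was at 3498 CPM in P10 cKO, 3894 in P10 WT, 2510 in P14 cKO and 2219 in P14 WT, with a P14 log2 ratio of 0.18 (0.12 to 0.24).

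The 6 type IV genes, the basement membrane family, were each higher in P14 cKO than in P14 WT fibroblasts, with a median log2 ratio of 0.44 and a range of 0.24 to 0.69. Col4a1 was at 886 CPM in P10 cKO, 827 in P10 WT, 754 in P14 cKO and 549 in P14 WT (P14 log2 ratio 0.46, 0.35 to 0.57). Col4a2 was at 537, 566, 399 and 304 CPM in that order (0.39, 0.24 to 0.54). Both were lowest in P14 WT, and at P10 the cKO and WT values lay close together, with log2 ratios of 0.10 and -0.08. Col4a3 and Col4a4, the chains known from kidney filters, were counted low, at 12.8 CPM each in P14 cKO and 7.91 CPM each in P14 WT, and their intervals (-0.25 to 1.65) include 0. Among the other families with at least 3 genes compared, the median was 0.09 over 10 fibrillar genes, -0.04 over 3 beaded-filament genes, -0.10 over 6 fibril-associated genes and -0.09 over 3 transmembrane genes.

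The X-linked pair differed from the Col4a1 and Col4a2 pair at P10. Col4a6 was at 359 CPM in P10 cKO and 124 CPM in P10 WT, and at 294 CPM in P14 cKO and 219 CPM in P14 WT. Col4a5 was at 604 CPM in P10 cKO and 361 CPM in P10 WT, and at 550.0 CPM in P14 cKO and 466 CPM in P14 WT. The P10 log2 ratios were 1.53 for Col4a6, which spans 308.7 kb, and 0.74 for Col4a5, which spans 213.8 kb, against P14 ratios of 0.42 and 0.24. The Xist and Ddx3y levels and the Cell Ranger version differed between the same 2 P10 libraries, and their part in these ratios was not tested.

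Type VI collagen, which forms beaded filaments around cells, was close to even: Col6a1 was at 494 CPM in P10 cKO, 547 in P10 WT, 472 in P14 cKO and 510 in P14 WT (P14 log2 ratio -0.11). Col6a2 was at 341, 352, 309 and 318 CPM and Col6a3 at 195, 186, 132 and 124 CPM in that order. The multiplexins, which sit in basement membranes, had their higher levels at P10 in both genotypes, with Col18a1 at 285, 287, 197 and 174 CPM and Col15a1 at 399, 394, 263 and 265 CPM. Col5a1 and Col5a2, chains of the type V collagen that starts fibrils, had P14 log2 ratios of 0.15 and 0.04. Col12a1, a fibril-associated collagen, was at 307 CPM in P10 cKO, 270 in P10 WT, 258 in P14 cKO and 312 in P14 WT (-0.27).

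Col7a1, the anchoring-fibril chain, was at 24.9 CPM in P10 cKO, 22.6 in P10 WT, 19.4 in P14 cKO and 8.33 in P14 WT. P14 WT was the low library, and the P14 log2 ratio was 1.21 (0.39 to 2.09). Col8a1, a short-chain collagen of vessel walls and other membranes, was at 101 CPM in P10 cKO, 34.4 in P10 WT, 41.7 in P14 cKO and 23.7 in P14 WT, higher in cKO at both ages with log2 ratios of 1.55 at P10 and 0.81 (0.30 to 1.34) at P14. The 5 cells with most held 95.1% of its UMIs in P10 cKO, 46.3% in P10 WT, 86.7% in P14 cKO and 70.2% in P14 WT, and the gene spans 130.5 kb. Its relative Col8a2 went the other way at P14, with 16.1 CPM in P14 cKO and 28.3 CPM in P14 WT (-0.80, -1.49 to -0.17). Col22a1, a fibril-associated collagen, was at 14.9, 6.69, 14.4 and 26.7 CPM in P10 cKO, P10 WT, P14 cKO and P14 WT, with log2 ratios of 1.18 at P10 and -0.87 (-1.60 to -0.21) at P14 and a span of 238.4 kb.

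Col25a1 (chr3:130131501-130599877), a transmembrane collagen known from neurons, was at 95.7 CPM in P10 cKO, 5.53 in P10 WT, 35.0 in P14 cKO and 94.1 in P14 WT. The log2 ratio was 4.11 (3.71 to 4.53) at P10 and -1.42 (-1.85 to -1.02) at P14, so the 2 ages point in opposite directions. The 5 cells with most held 78.6% of these UMIs in P10 cKO, against 23.7% in P10 WT, and 71.4% in P14 cKO, against 66.4% in P14 WT. Cells with at least 5 Col25a1 UMIs numbered 6 in P10 cKO, 1 in P10 WT, 3 in P14 cKO and 11 in P14 WT, a subset chosen after the values were seen. In the remaining fibroblasts the level was 18.5, 5.17, 14.4 and 17.2 CPM in that order. The Col25a1-rich cells had less Col1a1 than the other fibroblasts, with 1389 against 2979 CPM in P14 cKO and 1383 against 2348 CPM in P14 WT. Col25a1 spans 468.4 kb.

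Col2a1, the cartilage fibril chain, gave 3 UMIs in P14 cKO and 37 in P14 WT fibroblasts, a log2 ratio of -3.01 with an interval of -5.55 to -1.55. The 37 UMIs came from 3 of 211 cells, which also held 93 UMIs of Col11a1, 37 of Col23a1 and 15 of Col11a2, and 0 of Col9a1 and Col9a3. Col11a2 gave 4 UMIs in P14 cKO and 20 in P14 WT (-1.77, -3.91 to -0.33). Of those 20 UMIs, 15 lay in 1 cell.

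The summed levels of fibroblast layer markers differed between the P14 libraries beside these collagen values. The summed level of 7 arachnoid and dura markers was 693 CPM in P10 cKO, 770 in P10 WT, 735 in P14 cKO and 1251 in P14 WT. That of 5 pial and perivascular markers was 2093, 1795, 1750 and 1449 CPM in that order. P14 WT had the highest sum for the outer-layer list and the lowest for the inner-layer list, and all members of both lists were detected. The members were not uniform. In P14 cKO over P14 WT, 3 of the 7 outer-layer markers were at least 2-fold lower (Slc47a1, Alpl and Fxyd5). Dpp4 was at least 2-fold higher, and 2 of the 7 had a log2 ratio above 0. Of the 5 inner-layer markers, 4 were above 0 and 0 were past 2-fold. Choroid plexus markers in the fibroblast gate summed to 94.5, 93.5, 96.7 and 594 CPM in that order. Mural markers summed to 3783, 4240, 5269 and 3604 CPM, of which Vtn made up 3697, 4178, 5127 and 3549 CPM, while Myh11 was at 0 in all 4 libraries and Rgs5 at 0, 2.47, 0 and 1.25 CPM. The part of cell makeup in the collagen ratios was not tested.

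At P10 the collagen sum in fibroblasts was 18038 CPM in cKO and 18445 CPM in WT (log2 ratio -0.03, -0.05 to -0.01). Of 36 collagen genes, 8 were at least 2-fold higher in P10 cKO and 2 at least 2-fold lower, against 19.8% and 4.16% of all genes. The 8 were Col4a3, Col4a4, Col4a6, Col6a6, Col8a1, Col22a1, Col23a1 and Col25a1. The 2 lower were Col6a5 and Col9a3. The collagen median was 0.14, against 0.13 over all genes, and the count of higher genes lies near the background. Col23a1 (294 kb) was at 207 CPM in P10 cKO and 95.6 CPM in P10 WT, but at 258 CPM in P14 cKO and 275 CPM in P14 WT. The type I and III genes, which span 16.8 to 38.2 kb, had P10 log2 ratios of -0.15 to -0.18.

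Between ages within the mutant, P14 cKO fibroblasts had 1 of 31 collagen genes at least 2-fold higher than P10 cKO (Col4a3) and 2 at least 2-fold lower (Col25a1 and Col8a1), against 4.23% and 4.3% of all genes. The collagen median was -0.25, against -0.10 over all genes. These libraries share the P10 cKO and P14 cKO values given above. The type I and III chains had the lower level at the later age, with Col3a1 at 2510 CPM in P14 cKO and 3498 CPM in P10 cKO.

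**Figure D3:**
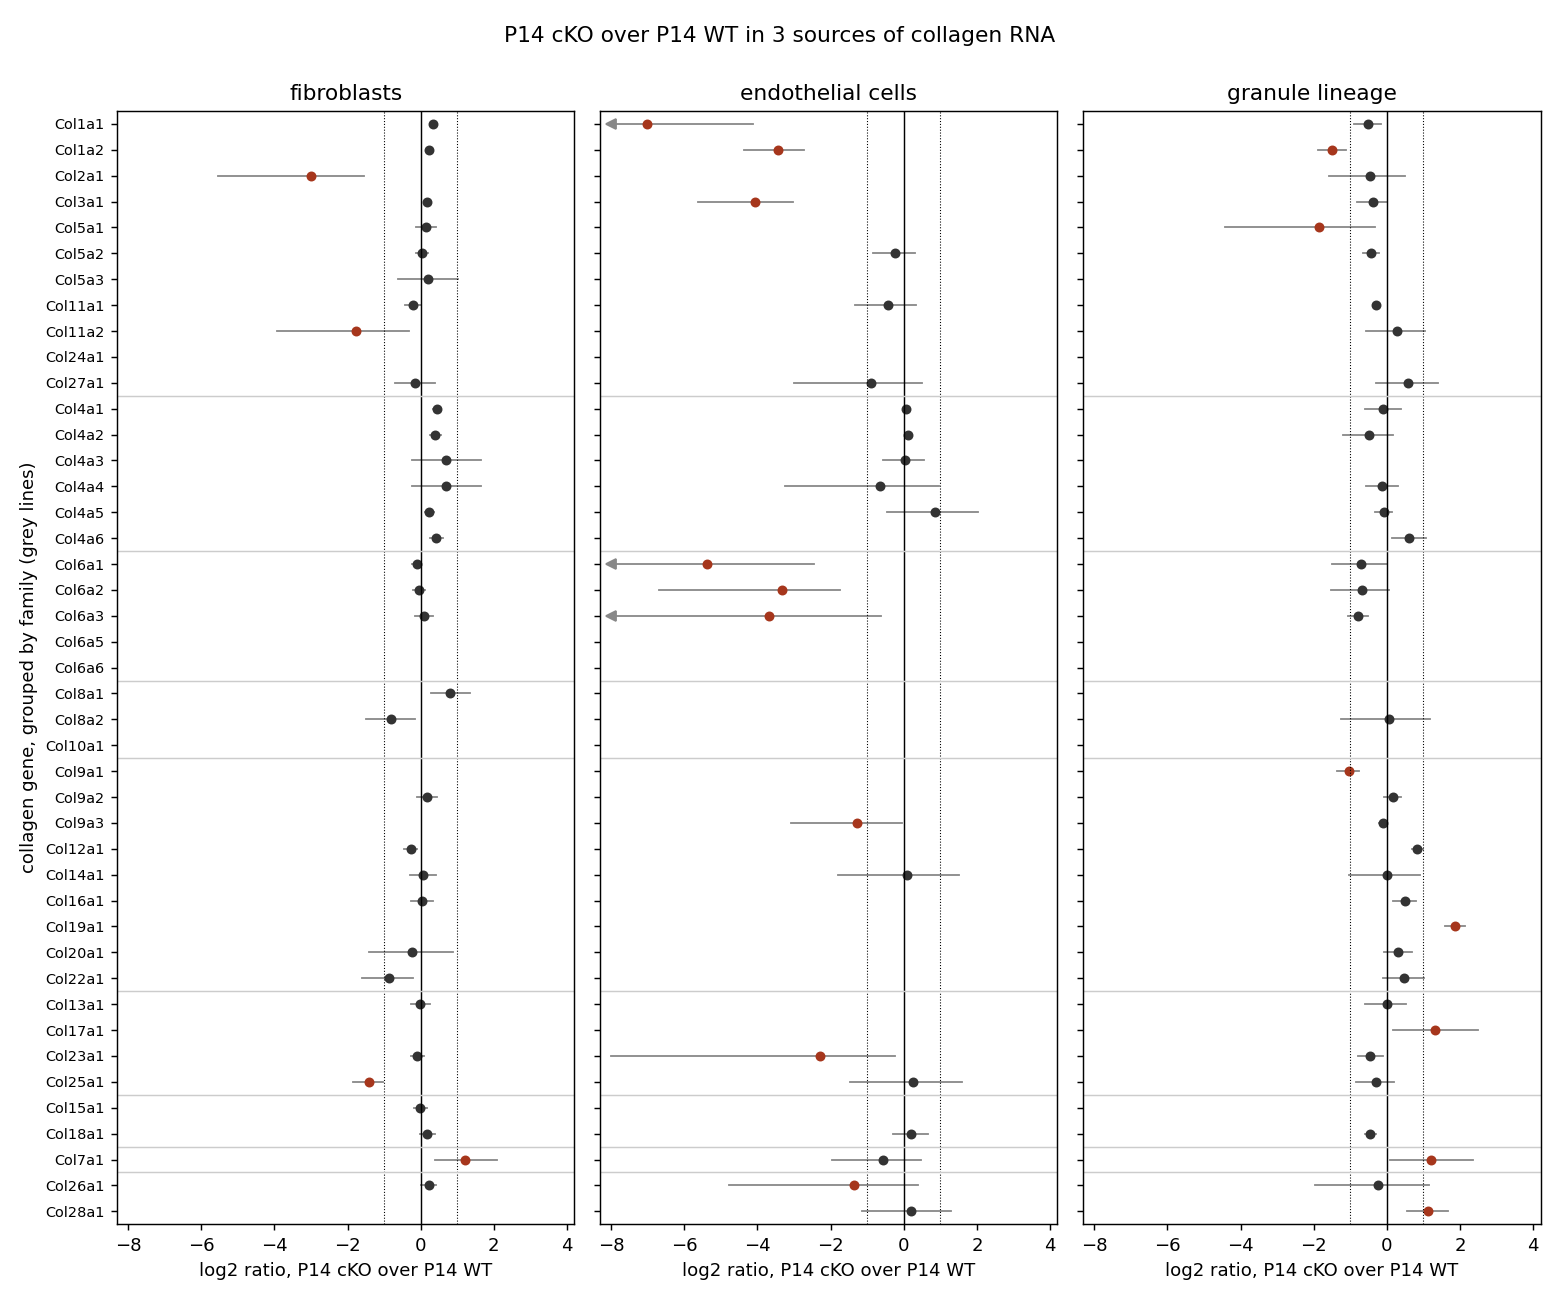
Log2 ratio of P14 cKO over P14 WT (x axis) for each collagen gene with at least 20 UMIs in the pair, in fibroblasts, endothelial cells and granule lineage cells. Points are ratios (red at 2-fold or more), bars are 95% intervals for counting error and arrows mark intervals with no lower end. In fibroblasts the 6 type IV genes lie right of 0 and Col25a1 at -1.42, and in endothelial cells Col3a1 lies at -4.05.

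A single fit over both ages, edgeR's quasi-likelihood test with age and genotype as terms and Benjamini-Hochberg adjustment over all genes, called 0 of 33 collagen genes in fibroblasts (background 0%). The gene with the lowest unadjusted p there, the single one under 0.05, was Col8a1, with an edgeR log2 ratio of 1.15 and an adjusted p of 0.913, higher in cKO at both ages. The same fit called 0 of 23 in endothelial cells and 0 of 36 in granule lineage cells (background 0% in each), with 4 and 2 at an unadjusted p under 0.05. Over all genes, 353 of 11505 were under 0.05 unadjusted in fibroblasts, 368 of 12208 in endothelial cells and 433 of 17693 in granule lineage cells. DESeq2 called 0 collagen genes in fibroblasts, where it called 0.0869% of all genes, and 0 in granule lineage cells, where it called 0.418%. In endothelial cells it called 2 (Col1a1 and Col1a2), against 0.0573% of all genes, and so did edgeR with no filter on low counts, against 0.0587%. The fit has 1 residual degree of freedom, so the 2 ages stand in for replicates.

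Genes that process collagen were close to even in P14 fibroblasts. Of 18 hydroxylation, glycosylation and folding genes, 16 had enough UMIs, and 1 was at least 2-fold higher in cKO (P3h2, a prolyl 3-hydroxylase), 0 were at least 2-fold lower, and the median log2 ratio was -0.08. Ppib, a prolyl isomerase, was at 818 CPM in P14 cKO and 785 CPM in P14 WT (0.06). Serpinh1, the collagen chaperone HSP47, was at 695 and 737 CPM (-0.08). P4hb, a subunit of prolyl 4-hydroxylase, was at 179 CPM in P14 cKO and 169 CPM in P14 WT (0.09). Of 12 export and propeptide-cleavage genes 10 were compared with 0 at least 2-fold higher and 1 at least 2-fold lower (Adamts3, a propeptidase), median -0.03. Pcolce, an enhancer of propeptide cleavage, was at 533 CPM in P14 cKO and 480 CPM in P14 WT (0.15), and Adamts2, a procollagen N-propeptidase, at 82.8 and 105 CPM (-0.34).

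Of 12 cross-linking and fibril-assembly genes, 10 were compared, none past 2-fold, with 3 above 0 and a median of -0.08. Among the small proteoglycans that coat fibrils, Dcn was at 4088 CPM in P14 cKO and 5194 CPM in P14 WT (-0.35), Lum at 297 and 356 CPM (-0.26), Bgn at 347.8 and 368 CPM (-0.08) and Fmod at 93.3 and 93.7 CPM (-0.0042). Dcn and Lum also served as gate markers. Of 14 basement membrane partners, 13 were compared, none past 2-fold, with 10 above 0 and a median of 0.12. Sparc, a collagen-binding protein, was at 5428 CPM in P14 cKO and 4387 CPM in P14 WT (0.31), and Nid1, which bridges laminin and type IV collagen, at 776 and 714 CPM (0.12). Of 11 collagen receptors, 8 were compared, with 0 higher and 1 lower by 2-fold (Itga10) and a median of -0.27. Itgb1, the integrin chain shared by collagen-binding integrins, was at 398 CPM in P14 cKO and 311 CPM in P14 WT (0.36), and Mrc2, an uptake receptor for collagen, at 129 and 161 CPM (-0.31). Of 11 breakdown genes and inhibitors, 6 were compared, none past 2-fold, median 0.03, with the metalloproteinase Mmp14 at 263 CPM in P14 cKO and 256 CPM in P14 WT (0.04).

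Mural cells had the highest Col4a1 and Col4a2 levels of the classes in P10 WT, P14 cKO and P14 WT, the 3 libraries with at least 20 mural cells. Col4a1 was at 3759 CPM in P10 cKO (6 cells), 3627 in P10 WT, 2709 in P14 cKO and 3202 in P14 WT, and Col4a2 at 2353, 2067, 1355 and 1451 CPM in that order. Both were higher at P10 than at P14, and at P14 the cKO value was lower, by a log2 ratio of -0.24 (-0.41 to -0.07) for Col4a1 and -0.10 for Col4a2. In fibroblasts the same 2 genes were higher in P14 cKO. The difference between the classes was not tested.

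The fibrillar genes of mural cells had a different make-up from those of fibroblasts. Col1a2 was at 428 CPM in P10 cKO, 590 in P10 WT, 336 in P14 cKO and 468 in P14 WT, while Col1a1 gave 0, 12, 2 and 1 UMIs. The ratio of Col1a1 over Col1a2 was therefore 0.0308 in P14 cKO and 0.0112 in P14 WT, against 0.724 and 0.670 in fibroblasts of the same libraries. Col3a1 was at 238 CPM in P14 cKO and 294 CPM in P14 WT (-0.31), Col5a2 at 217 and 195 CPM (0.16), and Col18a1 at 109 and 116 CPM (-0.09). Of 10 collagen genes compared at P14, 0 were at least 2-fold higher and 2 at least 2-fold lower, against 4.03% and 3.66% of all genes, with a median of -0.27 against -0.02. The 2 were Col8a1, with 4 UMIs in P14 cKO and 16 in P14 WT (-1.90), and Col4a5, with 8 and 21 UMIs (-1.36). The collagen sum was 5382 CPM in P14 cKO and 6309 CPM in P14 WT (-0.23, -0.35 to -0.11), on 25 and 33 cells. Fibroblast markers in the mural gate summed to 295 CPM in P14 cKO and 394 CPM in P14 WT.

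In endothelial cells Col4a1, Col4a2 and Col18a1, which encode components of the vessel basement membrane, differed little between genotypes. Col4a1 was at 1334 CPM in P10 cKO, 1282 in P10 WT, 1155 in P14 cKO and 1115 in P14 WT. Col4a2 was at 1030, 965, 888 and 818 CPM in that order, and Col18a1, the source of endostatin, at 36.4, 38.8, 30.3 and 26.6 CPM. At P14 the log2 ratios were 0.05 (-0.02 to 0.12) for Col4a1, 0.12 (0.03 to 0.20) for Col4a2 and 0.20 for Col18a1. Col4a1 over Col4a2 was 1.30, 1.33, 1.30 and 1.36 in P10 cKO, P10 WT, P14 cKO and P14 WT, lower than in fibroblasts (1.65, 1.46, 1.89 and 1.81) and in mural cells (1.60, 1.75, 2 and 2.21) of each library. The other type IV chains were counted lower. Col4a5 gave 4 UMIs in P10 cKO and 88 in P10 WT (log2 ratio -1.52), and 10 in P14 cKO and 18 in P14 WT (0.86, with an interval that includes 0). Col4a4 gave 3 UMIs in P14 cKO and 17 in P14 WT (-0.65). Col4a3 was at 13.5 CPM in P10 cKO, 10.2 in P10 WT, 21.4 in P14 cKO and 21.2 in P14 WT. Its ratio to Col4a4 was 12 in P14 cKO (3.79 to 60.9, on 3 Col4a4 UMIs) and 6.71 in P14 WT endothelial cells, against 0.0794 and 0.0863 in granule lineage cells. The endothelial ratio was above the granule lineage ratio at P10 too, at 9.67 and 6 against 0.195 and 0.146 in P10 cKO and P10 WT.

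The fibrillar genes differed between the endothelial libraries. Col1a1 gave 4 UMIs in P10 cKO, 918 in P10 WT, 0 in P14 cKO and 206 in P14 WT, which is 1.87, 62.4, 0 and 38.4 CPM. Against a floor of 3 UMIs it was at least 21.5-fold lower in P14 cKO than in P14 WT. Col3a1 was at 31.7 CPM in P10 cKO, 72.5 in P10 WT, 3.57 in P14 cKO and 64.1 in P14 WT, and Col1a2 at 27.1, 96.2, 8.32 and 93.1 CPM. Both WT libraries were above both cKO libraries for these 3 genes. Of the 6 fibroblast genes outside the gate that gauge free RNA below, 4 were compared at P14. Of these, 3 were at least 2-fold lower in cKO (Mgp, Serpinf1 and Clec3b) and 1 was above 0. The median log2 ratio was -2.09. At P10, 3 of 5 were lower (Mgp, Serpinf1 and Cyp1b1) and 1 above 0, with a median of -1.09. The part of free RNA in the collagen ratios was not tested. At P14, 9 of 22 collagen genes were at least 2-fold lower in cKO and 0 at least 2-fold higher, against 5.87% and 1.64% of all genes, with a median of -0.61 against -0.03. The 9 were Col1a1, Col1a2, Col3a1, Col6a1, Col6a2, Col6a3, Col9a3, Col23a1 and Col26a1. With each cell thinned to 2000 UMIs, 4 collagen genes kept enough UMIs, of which 1 was lower (Col1a2) and 1 higher (Col18a1), against 6.97% and 3.55% of all genes. At P10, 12 of 29 were at least 2-fold lower and 1 (Col11a1) at least 2-fold higher, against 3.95% and 18.4% of all genes, with a median of -0.25 against 0.09. Between P14 cKO and P10 cKO endothelial cells, 2 of 9 were at least 2-fold lower at the later age (Col1a2 and Col3a1) and 0 at least 2-fold higher, against 4.73% and 2.23% of all genes.

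In P14 WT a small number of cells carried most of the Col1a1, Col1a2 and Col3a1 UMIs, and in P10 WT more cells had some. A Col1a1 UMI was found in 0 of 81 endothelial cells in P14 cKO, against 7 of 314 (2.23%) in P14 WT, where 5 cells held 99.0% of the 206 UMIs. At P10 it was found in 4 of 100 cells in cKO, against 152 of 935 in WT, where 5 cells held 66.8% of the 918 UMIs. Col3a1 was found in 207 and Col1a2 in 231 of the 935 P10 WT cells. Granule lineage cells, which should lack Col1a1, had a UMI in 2.08% of cells in P10 cKO, 15.5% in P10 WT, 1.64% in P14 cKO and 0.759% in P14 WT. The median depth in P14 WT was 11772 UMIs for endothelial and 7743 for granule lineage cells, and in P10 WT 11839 and 9570. Thinned to 2000 UMIs a cell, the P10 WT shares were 4.12% of endothelial and 3.35% of granule lineage cells, and the P14 WT shares 0.356 and 0.138%.

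Endothelial cells with at least 2 of the 10 fibroblast markers, a split chosen after the values were seen, numbered 12 in P10 cKO, 170 in P10 WT, 7 in P14 cKO and 34 in P14 WT. They held 62.3, 82.7, 70 and 90.1% of the summed Col1a1, Col1a2 and Col3a1 UMIs in that order. They were also deeper, which raises these shares. In P14 cKO the 7 cells held 270929 UMIs of all genes, against 93378 in the 22 cells with no fibroblast marker. In P14 WT the 34 cells held 1046383 UMIs, against 703713 in 93 cells with none. In cells with at least 2 markers the summed level of the 3 genes was 51.7 CPM in P14 cKO and 904 CPM in P14 WT. At the earlier age it was 129 CPM in P10 cKO and 589 CPM in P10 WT. Cells with 1 marker had 3.79 CPM in P14 cKO (5 UMIs) and 27.9 CPM in P14 WT (101 UMIs), and 34.5 CPM in P10 cKO and 62.0 CPM in P10 WT. Cells with no fibroblast marker had 20.6 CPM in P10 cKO and 45.8 CPM in P10 WT, and at P14 too few UMIs to compare, 1 in P14 cKO and 3 in P14 WT. Col4a1 was at 1550 CPM in P14 cKO and 1347 CPM in P14 WT in the cells with at least 2 markers. It was at 1048 and 1092 CPM in those with 1 marker and at 1510 and 890 CPM in those with none (141 and 626 UMIs). Each subset held it at a high level, but the direction between the P14 libraries was not the same in each. With the cells of at least 2 markers left out, 3 of 10 collagen genes were at least 2-fold lower in P14 cKO (Col1a2, Col3a1 and Col9a3) and 0 at least 2-fold higher, against 6.74% and 1.71% of all genes in the same cells. At P10, 5 of 22 were lower (Col1a1, Col4a5, Col6a1, Col7a1 and Col8a1) and 1 higher (Col11a1), against 3.79% and 18.7%. The fibroblast list as a whole summed to 118 CPM in P10 cKO, 215 in P10 WT, 113 in P14 cKO and 183 in P14 WT endothelial cells, of which Dcn made up 2.33, 51.2, 0 and 39.7 CPM. The mural marker list summed to 1586, 1736, 800 and 1968 CPM, lowest in P14 cKO.

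**Figure D4:**
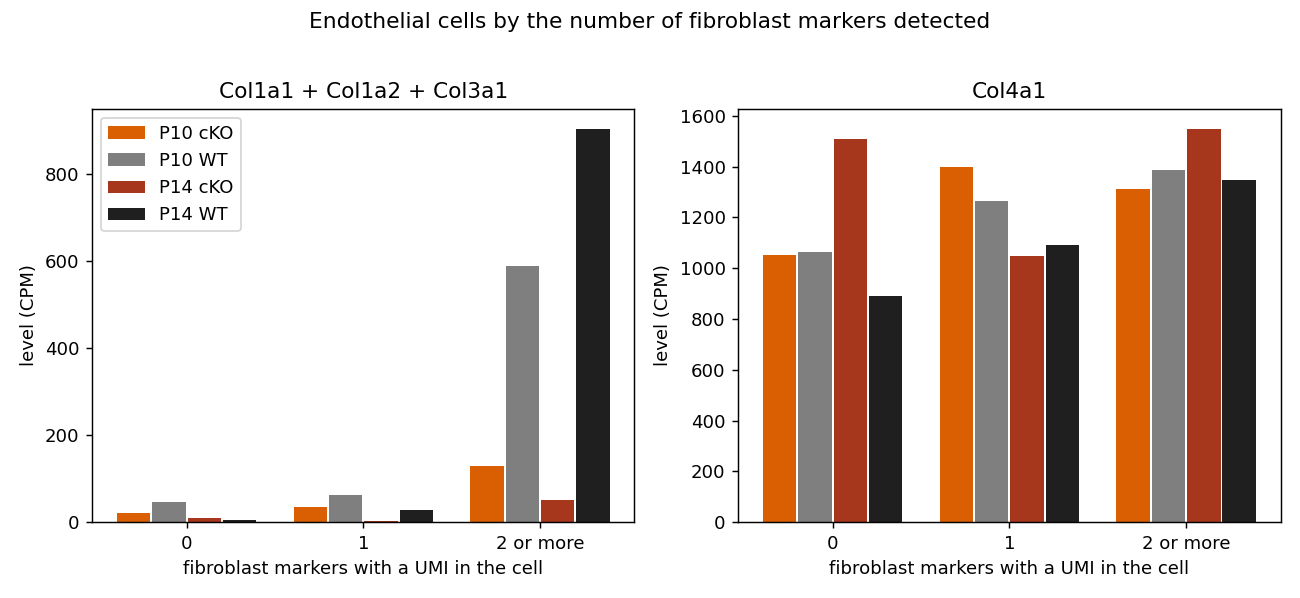
Summed level of Col1a1, Col1a2 and Col3a1 (left, y axis, CPM) and level of Col4a1 (right, CPM) in endothelial cells with 0, 1 or at least 2 fibroblast markers, by library. For the summed genes, cells with at least 2 markers stood at 51.7 CPM in P14 cKO and 904 CPM in P14 WT, and cells with 1 marker at 3.79 and 27.9 CPM. The P14 bars for cells with none rest on 1 UMI in P14 cKO and 3 UMIs in P14 WT.

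Granule lineage cells, the granule neurons of the cerebellum and their precursors, had low levels of many collagen genes. Free RNA in the suspension, which gives UMIs in cells that do not express a gene, was gauged with 6 fibroblast genes outside the gate, whose level in granule lineage cells was taken as a percentage of that in fibroblasts. The highest of the 6 stood at 0.586% in P10 cKO, 1.48% in P10 WT, 0.423% in P14 cKO and 0.527% in P14 WT. Col11a1 stood at 133, 56.3, 109 and 115% in that order, Col18a1 at 8.27, 7.86, 5.49 and 8.54%, and Col12a1 at 1.91, 2.10, 6.29 and 2.92%, each above all 6. The gauge does not bear on genes with few fibroblast UMIs, among them Col9a1, Col9a3, Col17a1, Col19a1 and Col28a1, nor on free RNA from other classes. Col1a1 in granule lineage cells was 0.0942% of the fibroblast level in P10 cKO, 0.662% in P10 WT, 0.0651% in P14 cKO and 0.119% in P14 WT, against 0.586, 1.48, 0.224 and 0.527% for Mgp, and so within the range of the gauge.

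Col11a1 (chr3:114030540-114220718), a minor fibrillar chain, was at 208 CPM in P10 cKO, 83.1 in P10 WT, 158 in P14 cKO and 194 in P14 WT. Its log2 ratio was 1.33 at P10 and -0.30 (-0.34 to -0.26) at P14, with a span of 190.2 kb. Col9a3, a chain of the fibril-associated type IX, was at 27.5, 27.3, 20.0 and 21.5 CPM, with the P10 values above the P14 values in both genotypes and P14 log2 ratio -0.11. Col18a1 was at 23.5 CPM in P10 cKO, 22.5 in P10 WT, 10.8 in P14 cKO and 14.8 in P14 WT, again lower at the later age, with a P14 log2 ratio of -0.45 (-0.60 to -0.30).

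Col12a1 and Col19a1, fibril-associated collagens, were higher in P14 cKO. Col12a1 was at 5.86 CPM in P10 cKO, 5.67 in P10 WT, 16.3 in P14 cKO and 9.11 in P14 WT, with a P14 log2 ratio of 0.84 (0.69 to 0.98). Col19a1, known from a subset of forebrain interneurons, was at 2.63, 0.101, 6.75 and 1.85 CPM in that order, higher in cKO at both ages, with log2 ratios of 4.599 at P10 and 1.87 (1.60 to 2.15) at P14. It spans 325.6 kb. Col9a1 ran the other way, at 2.38 CPM in P10 cKO, 4.58 in P10 WT, 2.503 in P14 cKO and 5.17 in P14 WT, lower in cKO at both ages (-0.94 and -1.04), with a span of 75.1 kb. Col6a3, a type VI chain, was at 8.64, 10.1, 3.15 and 5.43 CPM, with a P14 log2 ratio of -0.78 (-1.06 to -0.52). Of 35 genes compared at P14, 4 were at least 2-fold higher (Col7a1, Col17a1, Col19a1 and Col28a1) and 3 at least 2-fold lower (Col1a2, Col5a1 and Col9a1), against 7.58% and 1.46% of all genes, with a median of -0.11 against 0.02. At P10, 7 of 36 were higher and 11 lower by 2-fold, against 27.7% and 7.24%, with a median of -0.38 against 0.10. Beside them, 5 of the 6 free RNA reference genes were at least 2-fold lower in P10 cKO granule lineage cells, with a median log2 ratio of -2.22. At P14, 1 of the 6 was at least 2-fold lower in cKO (Mgp) and 1 higher (Apod), with a median of -0.64. Col1a2 and Col5a1 were not among the genes that stood above all 6 in either P14 library. The part of free RNA in the counts at both ages was not tested. Between P14 cKO and P10 cKO, 4 of 36 were higher (Col4a6, Col7a1, Col12a1 and Col19a1) and 7 lower at the later age, against 7.56% and 2.85%.

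The stages of the lineage, split on single genes after the values were seen, used different collagens. Col18a1 was at 37.9 CPM in P14 cKO and 38.1 CPM in P14 WT cells with Atoh1, the marker of dividing precursors, against 4.47 and 6.39 CPM in cells with Nhlh1 or Cntn2 (markers of newly formed neurons) but neither Atoh1 nor Gabra6. At P10 Col18a1 was at 51.8 CPM in cKO and 31.8 CPM in WT cells with Atoh1. Col6a3 followed Col18a1, with 8.15 CPM in P14 cKO and 11.4 CPM in P14 WT cells with Atoh1, and 1.89 and 3.39 CPM in cells with Nhlh1 or Cntn2. Col12a1 ran in the opposite direction, at 3.09 CPM in P14 cKO and 2.94 CPM in P14 WT cells with Atoh1 and 18.3 and 11.04 CPM in cells with Nhlh1 or Cntn2. Col19a1 was highest in cells with Gabra6, a receptor subunit of mature granule cells, at 70.1 CPM in P14 cKO and 35.2 CPM in P14 WT, against 1.85 and 1.17 CPM in cells with Atoh1.

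The libraries differed in how many cells had a UMI of each stage marker. A cell was placed on 1 UMI, without thinning. Median depth of granule lineage cells was 10997 UMIs in P10 cKO, 9570 in P10 WT, 12530 in P14 cKO and 7743 in P14 WT. Cells with Atoh1 made up 17.8% of the lineage in P10 cKO, 29.2% in P10 WT, 11.3% in P14 cKO and 11.8% in P14 WT. Cells with Gabra6 made up 1.37% in P10 cKO, 0.103% in P10 WT, 3.81% in P14 cKO and 0.237% in P14 WT. For Col19a1 the cKO level was higher within each of the 3 groups at P14. The P14 WT group with Gabra6 was 0.237% of 10535 cells, so its level rests on few cells. The parts of depth in these shares, and of stage and depth in the whole-lineage ratios, were not tested.

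**Figure D5:**
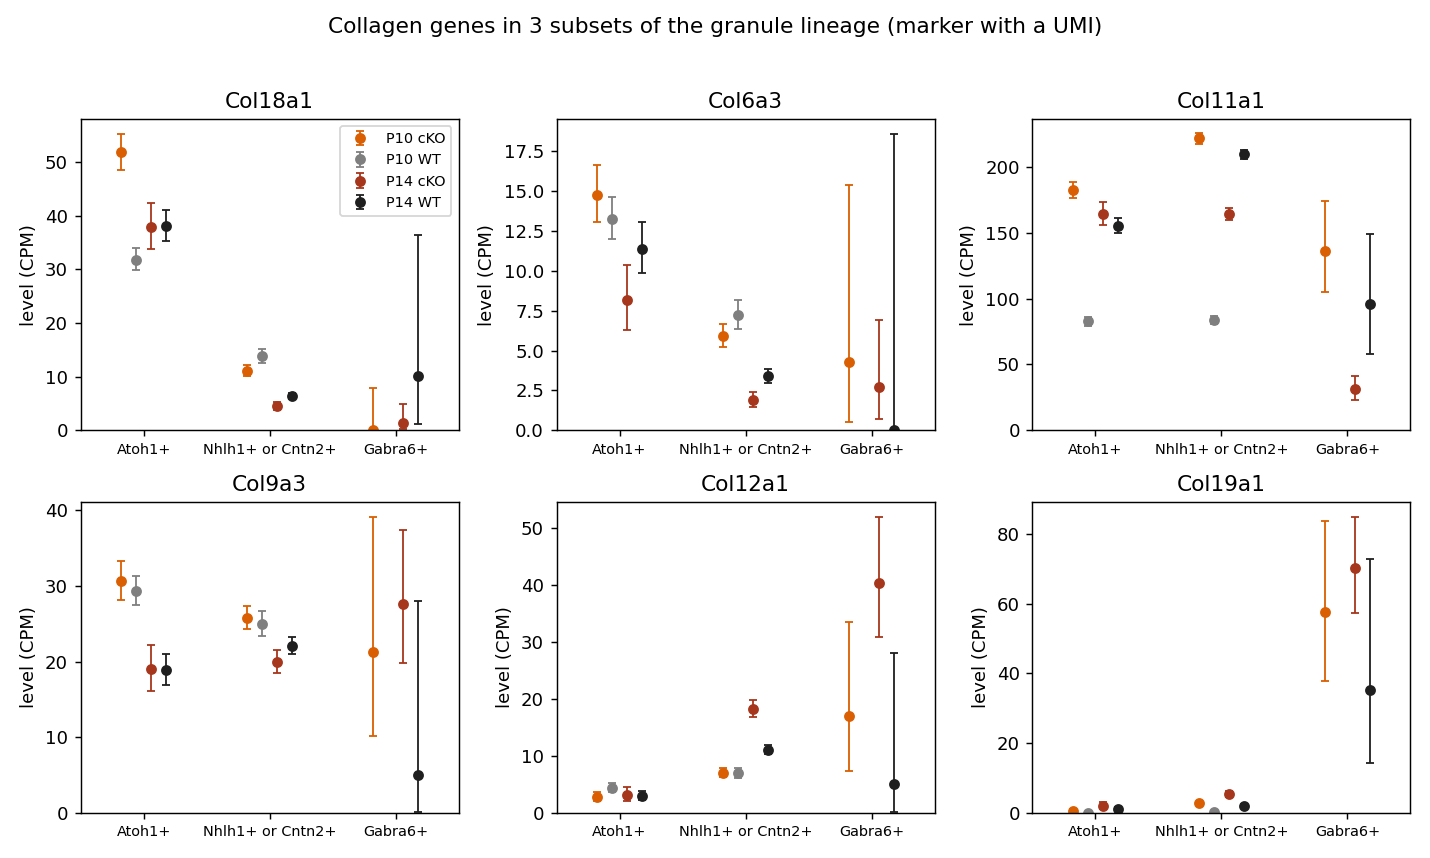
Level (y axis, CPM, with 95% intervals for counting error) of Col18a1, Col6a3, Col11a1, Col9a3, Col12a1 and Col19a1 in granule lineage cells with Atoh1, with Nhlh1 or Cntn2, and with Gabra6, by library, where at least 20 cells were counted. In P14 cKO and P14 WT Col18a1 stood at 37.9 and 38.1 CPM in cells with Atoh1 and at 4.47 and 6.39 CPM in cells with Nhlh1 or Cntn2, and Col19a1 stood at 70.1 and 35.2 CPM in cells with Gabra6.

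Among the other classes, oligodendrocyte precursors had Col9a3 at 349 CPM in P10 cKO, 468 in P10 WT, 349 in P14 cKO and 452 in P14 WT, lower in cKO at both ages (log2 ratios -0.42 and -0.37). In oligodendrocytes Col9a3 was at 204 CPM in P14 cKO and 280 CPM in P14 WT (-0.46), on cells with a median of 1510 UMIs in P14 cKO and 31964 UMIs in P14 WT, and the part of that gap was not tested. At P10 Col9a3 in these cells went the other way, with 172 CPM in P10 cKO and 153 CPM in P10 WT (0.18, 0.0086 to 0.34). In astroglia Col9a3 was at 202 CPM in P14 cKO and 242 CPM in P14 WT (-0.26). Col11a1 in oligodendrocyte precursors was level at P14, with 107 CPM in P14 cKO and 106 CPM in P14 WT (0.01), and so it was in GABAergic interneurons, with 149 and 150 CPM (-0.01).

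Astroglia held the highest Col2a1 level of any class, at 80.9 CPM in P10 cKO, 59.9 in P10 WT, 38.0 in P14 cKO and 53.6 in P14 WT, with log2 ratios of 0.43 at P10 and -0.49 at P14. Col23a1, a transmembrane collagen, was at 517 CPM in P10 cKO, 65.9 in P10 WT, 100.2 in P14 cKO and 324 in P14 WT astroglia. The P10 cKO and P14 WT libraries were high and the other two low, with log2 ratios of 2.97 at P10 and -1.69 (-1.88 to -1.505) at P14. Immune cells had Col27a1, a fibrillar chain, at 46.2, 29.2, 48.5 and 80.1 CPM in P10 cKO, P10 WT, P14 cKO and P14 WT, with log2 ratios of 0.66 at P10 and -0.72 at P14 and a span of 121 kb. Choroid plexus cells were numerous in P14 WT alone (413 cells), where Col9a3 was at 391 CPM and Col8a1 at 113 CPM.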

How the data were processed

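The deposited files are gene-by-barcode matrices of raw UMI counts per library, per the file headers, written by Cell Ranger 7.0.1 (P10 cKO), 5.0.0 (P10 WT) and 7.1.0 (both P14 libraries). Seurat 4.1.3, the mm10 build and a Cell Ranger version, 3.0.2, are listed in the submitters' processing notes. Whether introns were counted is not given in the sources used here. The total was 92315263 UMIs in P10 cKO, 158017834 in P10 WT, 91091692 in P14 cKO and 145731767 in P14 WT. The collagen genes, gene lists and comparisons were chosen with earlier results of these data known.

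Cells with at least 500 genes and at most 20% mitochondrial UMIs were kept and gated on marker genes. Cells without the margin over every other class stayed ungated, and doublets were otherwise not removed. An alternative left out the top 5% of cells by Scrublet score. Counts were summed per class and library. A log2 ratio added 0.5 UMI to each sum, scaled by class total, with exact binomial intervals at 95%, and needed 20 UMIs in the pair. Levels have exact Poisson intervals. UMIs are counted after PCR, and intervals and floors (3 UMIs) cover counting error alone. Described with values were Col1a1, Col1a2, Col3a1, Col4a1, Col4a2, Col18a1 and Col25a1, per main class the 6 genes with most UMIs and up to 3 highest and 3 lowest P14 ratios with at least 50 UMIs, and up to 2 genes in each other class. Other genes named were chosen after their values were seen. The fit over both ages used edgeR with TMM scaling and a minimum count of 10. It was tried on simulated data whose dispersion (spread between libraries) was set below the fitted values. The fitted dispersion was 0.127 in fibroblasts, 0.125 in endothelial cells and 0.263 in granule lineage cells. The simulation therefore does not show how the fit performs at the spread of these data. Alternatives were a stricter gate, stricter cell filters, thinning to 2000 UMIs a cell, TMM scaling of ratios, no UMI minimum, 1 UMI added, DESeq2, no gene filter and no age term. Gene spans came from GENCODE vM21 (GRCm38), which matched 32158 of 32285 IDs and 44 of 44 collagen genes, and promoter windows from RefSeq (GRCm38.p6), which matched 34 collagen genes. Software was Python 3.11.15, NumPy 2.4.6, SciPy 1.17.1, pandas 2.3.3, Scanpy 1.11.5, matplotlib 3.10.9, R 4.3.3, edgeR 4.0.16 and DESeq2 1.42.0.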

Additional observations from a re-analysis of the deposited data

Results flagged for a closer look

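Collagen UMIs were also found in cells outside every gate, which no comparison used: 10.3% of the collagen UMIs in P10 cKO, 10.8% in P10 WT, 14.7% in P14 cKO and 14.2% in P14 WT. Col25a1 in fibroblasts had a log2 ratio of cKO over WT of -1.42 at P14 and 4.11 at P10. Col7a1 in granule lineage cells had 1.20 at P14 and -1.48 at P10, on 16 UMIs in P14 cKO, 14 in P14 WT, 8 in P10 cKO and 25 in P10 WT. Col23a1 in astroglia had -1.69 at P14 and 2.97 at P10. These 3 genes pointed in opposite directions at the 2 ages, and the difference between ages was not tested, since each group is 1 library.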

How the results depend on the processing

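No paired analysis was possible because each group is 1 library and carries no replicate number. Of 244 alternatives over 41 results, 175 left the value alike, 62 moved it and 7 turned its direction, and the cause was not tested. TMM scaling shifted the median P10 log2 ratio of all genes by -0.12 in fibroblasts and by -0.11 in granule lineage cells. Counts below are of collagen genes at least 2-fold higher or lower in cKO, and sums are log2 ratios of the summed collagen level. Shares over all genes are given above for thinned P14 endothelial cells and for endothelial cells without the fibroblast-marker cells. For the other settings no such share was computed, so those counts have no background beside them. With no UMI minimum the counts include genes with few UMIs.

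In P14 fibroblasts 1 was lower with the top Scrublet cells left out, and 0 were higher and 1 lower with cells thinned; the sum was 0.26 with TMM. In P10 fibroblasts 1 was lower with the stricter gate and 3 higher when thinned, and the sum was 0.0027 with Scrublet, -0.0604 thinned and -0.15 with TMM. In P14 mural cells the sum was -0.0743 with the stricter gate, and 3 were higher and 6 lower with no UMI minimum. In P14 endothelial cells 1 was higher and 1 lower when thinned, with a sum of 0.10. There, 2 were higher and 16 lower with no minimum, and 3 lower, with a sum of 0.0205, without the cells holding at least 2 fibroblast markers, an alternative chosen after seeing the data. In P10 endothelial cells 5 were lower with the stricter gate (sum 0.0073). With Scrublet 0 were higher and 5 lower (sum 0.16), and thinned 0 and 3 (sum 0.0185). With no minimum 5 were higher, and with TMM 0 (sum -0.13). Without the fibroblast-marker cells 5 were lower (sum 0.13). In granule lineage cells at P14, 1 was lower with the stricter gate and 1 higher when thinned. At P10 their sum was 0.35 with the stricter gate, 0.39 with Scrublet, 0.27 thinned and 0.0861 with TMM, and 3 were higher when thinned.

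The fibroblast share of collagen UMIs was 37.9% in P10 cKO, 61.1% in P10 WT, 35.5% in P14 cKO and 24.4% in P14 WT with the stricter gate, and 43.2, 72.4, 43.7 and 30% with Scrublet. In P10 WT it was 67.4% with at least 1000 genes and 67.3% with at most 10% mitochondrial UMIs. In endothelial cells edgeR with no filter and DESeq2 called 2 collagen genes each, both lower in cKO, against 0.0587% and 0.0573% of all genes. Thinned counts test fewer genes, since fewer reach 20 UMIs. With 96 P14 cKO fibroblasts and 25 P14 cKO mural cells, low genes have wide intervals.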

Other observations

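Col1a2 was measured without a matching level of Col1a1 in several cell classes outside the fibroblasts. In astroglia Col1a2 was at 119 CPM in P10 cKO, 174 in P10 WT, 93.1 in P14 cKO and 123 in P14 WT, and Col1a1 at 31.3, 54.3, 3.17 and 6.66 CPM in that order. The UMI ratio of Col1a1 over Col1a2 in astroglia was 0.262, 0.312, 0.0340 and 0.0543, against 0.706, 0.699, 0.724 and 0.670 in fibroblasts of the same libraries. In P14 WT choroid plexus cells it was 0.0108, from 1 Col1a1 and 93 Col1a2 UMIs, and in P14 WT ependymal cells 0.0462. In granule lineage cells it was 0.779 in P10 cKO, 0.936 in P10 WT, 1.29 in P14 cKO and 0.657 in P14 WT. The level of Col1a2 in astroglia relative to fibroblasts (2.31% in P14 cKO and 3.59% in P14 WT) lay below that of Clec3b, 1 of the 6 free RNA reference genes (27.7 and 29.1%), and above that of the other 5.

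Ependymal cells, which line the ventricles, numbered at least 20 in the WT libraries. There Col8a2, a short-chain collagen, was at 64.8 CPM in P10 WT and 90.9 in P14 WT, and Col5a3, a type V chain, at 86.5 and 56.8 CPM. Oligodendrocytes had Col20a1, a fibril-associated collagen, at 20.5 CPM in P10 cKO, 5.69 in P10 WT, 35.4 in P14 cKO and 23.8 in P14 WT. The median depth of these cells was 49623 UMIs in P10 cKO, 2970 in P10 WT, 1510 in P14 cKO and 31964 in P14 WT, and the 5 cells with most held 60.9, 40, 45.7 and 56.1% of the Col20a1 UMIs in that order.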
